A study of Mus musculus with 7 samples.

Results

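The 2 peak lists of P19 cells, 1 for CTCF and 1 for CTCFL, were set against each other: where the peaks overlapped, how far apart the paired centres lay, how far unpaired CTCFL peaks were from CTCF, and how both varied along the genome. The lists were taken by their sample titles and held 32277 CTCF peaks and 5866 CTCFL peaks, of 100560 peaks in the 4 lists of the series. P19 is a mouse embryonal carcinoma line, a tumour-derived line with stem cell properties. Both libraries came from chromatin immunoprecipitation and sequencing of P19 cells that, per the labels, carry the stable integrates pBI-EGFP-FLAG-mCtcfl and pTA-N, an inducible tagged copy of mouse Ctcfl. The labels give the same culture for both, namely medium with 2 µg/ml doxycycline, with 48 h without it for induction. CTCF was precipitated with antibody N2.2 and CTCFL with antibody S6. The titles call these P19 cells controls, so whether Ctcfl was induced in them cannot be told from the labels, nor whether the line is 1 clone. NIH3T3 fibroblasts with the same integrates, also with 1 CTCF and 1 CTCFL list (45653 and 16764 peaks), serve below as the only point of comparison. The peak lists hold no expression values, so the line was not checked against marker genes.

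CTCF is a DNA-binding protein with an array of zinc fingers that reads a long recognition sequence, halts cohesin during loop extrusion and so marks the borders of chromatin loops and domains. CTCFL, also called BORIS, is its paralogue. The zinc fingers of both are closely alike and read much the same sequence, while the ends of the proteins differ. CTCF is found in nearly all cells, whereas CTCFL is normally made in male germ cells and in some tumours.

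With 1 library per antibody, the differences below have no spread between replicates to be set against and carry no p-value. The 95% intervals are exact (Clopper-Pearson) for shares and come from ranked values for medians. They cover counting error only, and neighbouring peaks are not independent. How deeply each library was sequenced is not given in these sources, so the depth behind a peak is unknown. CTCF peaks had a median width of 636 bp and covered 20.8 Mb, 0.790% of the 2636 Mb up to the last peak of each chromosome. CTCFL peaks had a median width of 581 bp and covered 3.58 Mb, 0.136%. The peak score is the authors' value from the peak caller and starts at 50 in both lists. It is used to rank peaks within a list, and across lists only as a limit of 100 in an alternative setting. Positions are mm9 coordinates counted from 1. Neither genes nor sequences are given for the peaks, because no annotation or genome of that build was used here.

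On the full lists CTCFL sat on CTCF sites at most of its peaks, and almost always as a single pair. Of 5866 CTCFL peaks, 3964 touched a CTCF peak by at least 1 bp (67.6%, 95% interval 66.4 to 68.8). With the CTCF list limited to its 5866 strongest peaks the share was 28.1%, so the majority depends on the length of that list. Of 32277 CTCF peaks, 3971 touched a CTCFL peak (12.3%, 11.9 to 12.7). These formed 3991 pairs, of which 3899 were one to one (97.7%). Only 26 CTCFL peaks spanned 2 or more CTCF peaks, and 20 CTCF peaks held 2 or more CTCFL peaks. Counted in bases, 59.8% of all CTCFL peak sequence lay inside CTCF peaks, and 10.3% of CTCF peak sequence lay inside CTCFL peaks. In 3T3 cells 61.3% of CTCFL peaks had CTCF and 21.2% of CTCF peaks had CTCFL. The 3T3 pairs were less simple, with 78.5% one to one (77.7 to 79.2) and 8.80% of shared CTCF peaks holding 2 or more CTCFL peaks, against 0.504% in P19 (0.308 to 0.777). Peaks were narrower in 3T3, with medians of 342 bp for CTCF and 283 bp for CTCFL, and the part of peak width in these differences was not tested.

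The overlaps were deep rather than marginal. The median overlap was 521 bp, with 428 and 635 bp at the lower and upper quartile, and only 21 of 3991 pairs overlapped by under 100 bp. In 1525 pairs (38.2%) the CTCFL peak lay wholly inside the CTCF peak, and in another 639 (16.01%) the CTCF peak lay inside the CTCFL peak. At least 50% of both peaks was covered in 3574 pairs, 89.6% (88.6 to 90.5). The CTCF peak was the wider of the pair in 66.9% of cases, by a median of 93 bp over all pairs.

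Paired peaks were centred on nearly the same position. The CTCFL centre was a median of 71 bp from the CTCF centre (68.5 to 73.5), which was 10.9% of the largest offset at which such peaks would still touch. Centres were within 50 bp in 37.5% of pairs, within 100 bp in 65.3% and within 200 bp in 90.6%, and over 400 bp apart in 91 pairs (2.28%). The CTCFL centre lay inside the CTCF peak in 3897 pairs (97.6%). The offsets fell to both sides: the CTCFL centre had the higher coordinate in 49.1% of pairs (47.5 to 50.7), and the median signed offset was −2 bp. The strand of the CTCF recognition sequence is not in the lists, so a shift relative to that sequence could not be examined. In 3T3 the median offset was 79.5 bp (77.0 to 81.5), above the P19 interval, and 79.4% of pairs had centres within 200 bp (78.6 to 80.2). The 3T3 peaks were narrower, and fewer of the 3T3 pairs were one to one, 78.5% against 97.7% in P19. The part of either in the offsets was not tested.

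**Figure D1:**
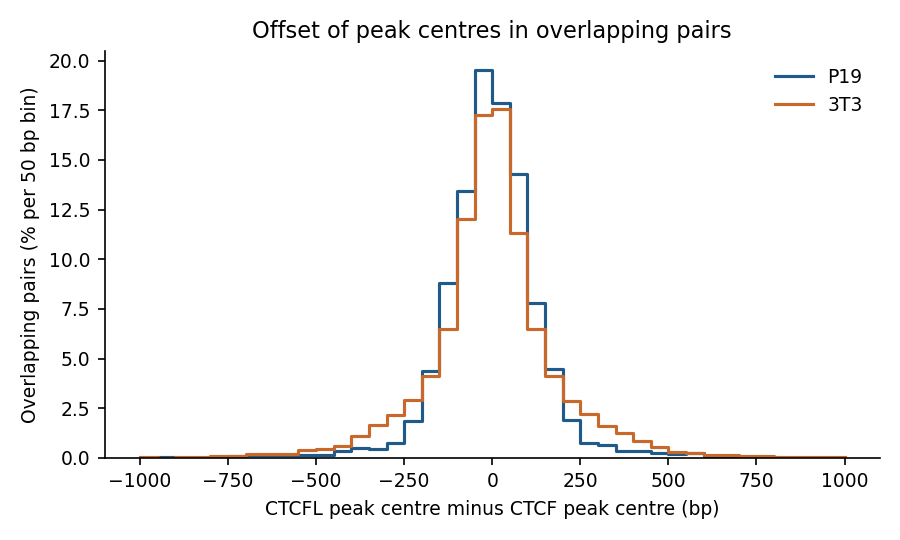
Signed distance from the CTCF peak centre to the CTCFL peak centre (x axis, bp) in overlapping pairs of P19 (3991 pairs) and 3T3 (10578 pairs) cells, as the percentage of pairs in each 50 bp bin (y axis). Both lines peak at 0 and fall off alike on either side, with 90.6% of P19 and 79.4% of 3T3 pairs within 200 bp; 3T3 offsets beyond 1000 bp are not drawn.

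The offset hardly varied with the strength of either peak. With the pairs in 4 groups of nearly equal size by CTCFL score, from the weakest to the strongest, the median offsets were 76.5, 68.5, 67 and 72.5 bp. The same grouping by CTCF score gave 72.5, 73, 67 and 71 bp. The weakest CTCFL peaks, with scores up to 62.2, thus lay within 9.5 bp of the others in their median offset. Width made a somewhat larger difference: pairs with the narrowest CTCFL peaks, 213 to 489 bp, had a median offset of 58 bp (54.0 to 62.5), and the 3 wider groups had 72 to 79 bp.

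The share of CTCFL peaks with CTCF was higher among the stronger peaks. Of the 100 highest scoring CTCFL peaks, 98 had CTCF, of the 500 highest, 456 (91.2%, 88.4 to 93.5), and of the 1000 highest, 842 (84.2%, 81.8 to 86.4), where the list as a whole has 67.6%. The strongest CTCF peaks had CTCFL less regularly: 70 of the 100 highest scoring CTCF peaks (60.02 to 78.8) and 264 of the 500 highest (52.8%, 48.3 to 57.2), where the whole list has 12.3%. In 3T3 the corresponding counts were 90 of 100 and 461 of 500. The partners of CTCFL peaks were drawn mainly from the upper part of the CTCF list. Of the 3964 paired CTCFL peaks, 1092 (27.5%) had a partner in the top 10% of CTCF scores and 152 (3.83%) one in the bottom 10%.

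The ranks of the paired peaks were only loosely related. Spearman's rho between the CTCFL score and the CTCF score was 0.151 across 3964 pairs, given as a description of peaks that share 2 libraries. In the 4 groups of pairs from the weakest to the strongest CTCFL score, the partner's CTCF score had medians of 171, 182, 196 and 236, which are the 69.8th, 72.7th, 75.8th and 83.5th percentiles of the CTCF list. The ranks in the 2 lists were within 25 percentile points of each other in 1836 pairs, while CTCFL ranked over 50 points above CTCF in 251 and over 50 points below it in 682. Among the 98 partners of the 100 strongest CTCFL peaks, 49 were in the top 10% of CTCF scores, and 17 were in the lower 50% of the list. In 3T3 rho was 0.479 across 10270 pairs, 98 of the 100 partners were in the top 10%, and none was in the lower 50%, which allows a share of up to 3.62% (exact upper bound). The 3T3 scores ran to 3233 for CTCF and 3205 for CTCFL and the P19 scores to 1598 and 1059, and the part of this range in the 2 values of rho was not tested.

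**Figure D2:**
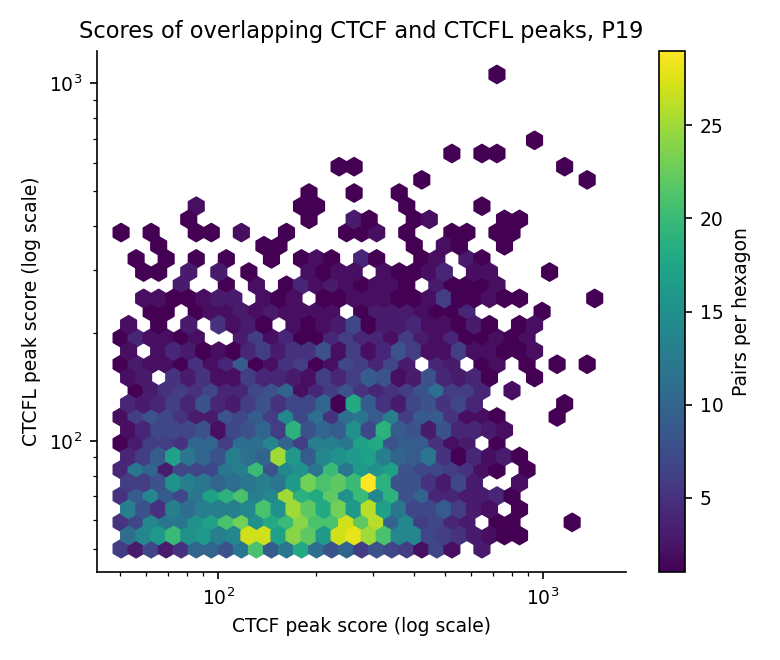
CTCF peak score (x axis, log scale) against CTCFL peak score (y axis, log scale) for the 3964 CTCFL peaks of P19 cells with CTCF, each with the CTCF peak it overlaps most; colour gives the number of pairs in each hexagon. At most CTCFL scores the CTCF scores are widely spread (rank correlation 0.151), while the few highest CTCFL peaks, from 603 to 1059, have CTCF scores of 515 to 1145.

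Individual sites show both the common and the discordant pattern. The strongest CTCFL peak, chr11:97420653-97421272, had a CTCFL score of 1059 and overlapped a CTCF peak (chr11:97420837-97421557, score 721) by 436 bp, with centres 234.5 bp apart. This offset lies beyond the 200 bp that hold 90.6% of pairs. The next, chr15:82089688-82090404 (CTCFL score 679), had a CTCF score of 953 and an offset of 164 bp. At chr15:97614465-97615291 (663 for CTCFL, 515 for CTCF) the centres were 123 bp apart. The fourth, chr11:77845209-77846165, scored 636 for CTCFL, and its CTCF peak (score 677) lay wholly inside it with an offset of 35.5 bp. The widest of the leading pairs was chr11:96882829-96884181, with a CTCFL peak of 1353 bp and a CTCF peak of 1427 bp overlapping over 1346 bp. The sixth, chr11:120766653-120767182 (603), had the highest CTCF score of these leading sites at 1145. All 6 partners were above the 98th percentile of the CTCF list, and 4 of the 6 sites were on chromosome 11. That chromosome held 481 of all 3964 CTCFL peaks with CTCF, the most of any chromosome.

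At other sites a strong CTCFL peak met a CTCF peak near the lower limit of the list. The largest gap in rank was at chr11:97490232-97491212, where CTCFL scored 401 (99.5th percentile) and CTCF 50.6 (percentile 0.782). The CTCF peak there was 420 bp wide and lay within a CTCFL peak of 981 bp, and 3T3 cells had no peak of either factor at this place. The other leading sites of this kind were chr12:21379177-21379919 (CTCFL 206, CTCF 50.7), chr9:40494282-40495022 (206 and 51.0) and chr7:126864119-126864675 (193 and 51.3). The opposite pattern, weak CTCFL on strong CTCF, was clearest at chr8:87162599-87163015, with a CTCFL score of 50.02 and a CTCF score of 658. Its peaks overlapped by only 128 bp and their centres were 501 bp apart. At chr1:182849631-182850127 (50.02 and 487) and chr12:90752261-90752754 (50.5 and 548) the CTCFL peak lay wholly inside the CTCF peak. At chr2:170336561-170337053 (50.4 and 515) the centres were 247 bp apart. All 4 places had a 3T3 CTCF peak, as did 77.0% of all P19 CTCFL peaks with CTCF.

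CTCF peaks of the highest scores could lack CTCFL altogether. The highest scoring CTCF peak of the list, chr9:121923187-121923895 (score 1598), was 30066 bp from the nearest CTCFL peak. For chr7:150104944-150105733 (1123) that gap was 132634 bp, for chr11:60856919-60857847 (990) 66042 bp and for chr2:32767680-32768426 (983) 59596 bp. Over all 28306 CTCF peaks without CTCFL the median gap to CTCFL was 93670 bp (quartiles 29328 and 267150 bp). Of the named gaps, only that of chr7:150104944-150105733 was above this median. CTCF peaks with CTCFL had their next CTCFL peak nearer, at a median of 50216 bp (47217 to 53381).

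The 1902 CTCFL peaks without CTCF were seldom near misses. Only 43 of them (2.26%) had a CTCF peak within 200 bp and 189 (9.94%, 8.63 to 11.4) within 1 kb. Another 687 (36.1%) had their nearest CTCF peak at 1 to 10 kb, 910 (47.8%) at 10 to 100 kb and 116 (6.10%) beyond 100 kb. The median gap was 11744 bp (10770 to 12672), the smallest 3 bp and the largest 803209 bp. In 3T3, with more CTCF peaks, 6.72% of the CTCFL peaks without CTCF had a CTCF peak within 200 bp (6.12 to 7.35), and the median gap was 5520 bp.

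With overlap as the criterion, CTCFL peaks without CTCF had a CTCF peak nearby somewhat less often than CTCFL peaks with CTCF had another. A CTCF peak was found within 10 kb of 46.1% of those without (43.8 to 48.3). Another CTCF peak, besides the one overlapped, was found within 10 kb of 53.4% of those with CTCF (51.8 to 54.9), whose median gap to it was 8748 bp. Within 1 kb the shares were alike, 9.94% and 10.4% (9.46 to 11.4), and the curves parted from there outwards, to 85.8% and 91.1% within 50 kb. By overlap, in each of 4 score groups of the CTCFL list the share within 10 kb was lower without CTCF, at 43.6, 47.2, 47.8 and 47.2% from weakest to strongest, against 51.3, 52.9, 54.9 and 53.8% with CTCF. The intervals of the 2 classes overlapped in groups 2 to 4 and in group 1 did not. When a peak counted as shared only if the 2 centres lay no more than 200 bp apart, the shares had overlapping intervals. They were 54.4% without (52.3 to 56.5) and 53.6% with CTCF (52.0 to 55.3). Under that rule CTCFL peaks that overlap CTCF off centre join the class without CTCF and count as near by construction. The change of order therefore gives no information on distance. In 3T3 the 2 shares were closer, 63.7% (62.6 to 64.9) and 65.2% (64.3 to 66.1).

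**Figure D3:**
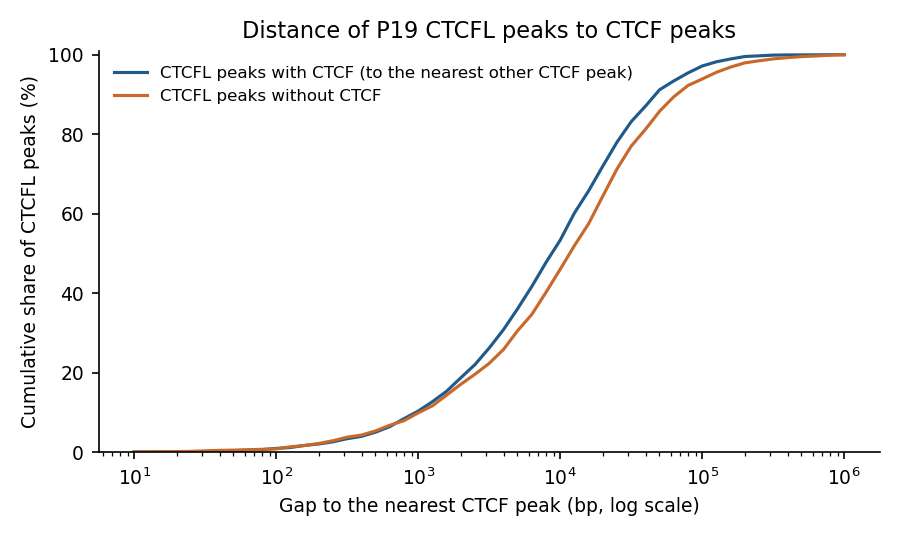
Cumulative percentage of P19 CTCFL peaks (y axis) with a CTCF peak within a given gap (x axis, bp, log scale), for the 1902 peaks without CTCF and, to the nearest CTCF peak that they do not overlap, the 3964 with CTCF. The curves run together up to 1 kb (9.94% and 10.4%) and then separate, with 46.1% and 53.4% at 10 kb.

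CTCFL peaks without CTCF had similar scores up to 100 kb from CTCF and lower ones beyond, while their widths decreased slightly with distance. Median CTCFL scores were 64.9 within 1 kb of CTCF, 68.5 at 1 to 10 kb, 65.6 at 10 to 100 kb and 59.3 beyond 100 kb (57.6 to 62.7), and median widths were 594, 557, 546 and 532 bp. Where the CTCF peak was within 1 kb, its median score was 127. For 68 of these 189 CTCFL peaks (36.0%, 29.1 to 43.3) the nearest CTCF peak overlapped a different CTCFL peak. In the whole CTCF list, where each CTCF peak counts once, 12.3% overlapped a CTCFL peak. A CTCFL peak with CTCF lay within 10 kb of 257 of the 1902 (13.5%).

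The highest scoring CTCFL sites without CTCF stood some kilobases from a CTCF peak. At chr5:33617544-33618171 (CTCFL score 309) the gap was 3421 bp, at chr11:98724360-98725305 (291) 3373 bp and at chr9:75289290-75289742 (289) 3350 bp. The gaps were shorter at chr2:73108450-73109189 (274), with 2361 bp, and chr2:158436236-158437166 (269), with 1902 bp, and longer at chr11:23155042-23156062 (258), with 13196 bp. The nearest CTCF peak itself carried CTCFL at 3 of these 6 sites. That share was not computed for CTCFL peaks without CTCF at such distances, so the count cannot be set against its class. The peaks farthest from CTCF were weak: chr14:92359844-92360170 (CTCFL score 66.8), chr12:68323510-68324024 (53.3), chr6:110240242-110240713 (52.2) and chr1:48546071-48546673 (58.5) were 679141 to 803209 bp away, all below the list median of 75.1 and without a 3T3 peak of either factor. A 3T3 peak was uncommon in their whole class: of the 116 CTCFL peaks beyond 100 kb, 29 had 3T3 CTCF and 23 had 3T3 CTCFL. Among peaks scoring at least 100, the closest to a CTCF peak were chr6:39155438-39156044 (gap 33 bp), chr4:151504621-151505374 (78 bp), chr8:28086752-28087800 (103 bp) and chr7:28438459-28439097 (105 bp). Each of these 4 places had a 3T3 CTCF peak, as did 50.8% of all CTCFL peaks without CTCF within 1 kb of one. For the first 3 the adjacent P19 CTCF peak carried another CTCFL peak, which held for 36.0% of that class.

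CTCF peaks with CTCFL tended to stand beside each other. After a CTCF peak with CTCFL, the next CTCF peak along the chromosome also had CTCFL in 16.1% of cases (14.9 to 17.2), and after one without in 11.8% (11.4 to 12.2). The difference was larger when the next peak lay within 10 kb, at 21.05% (18.9 to 23.3) against 14.1% (13.3 to 14.9), and smaller beyond 50 kb, at 10.7% (8.88 to 12.8) against 8.96% (8.42 to 9.53), where the intervals overlapped. The 26 CTCFL peaks that span 2 or more CTCF peaks add to the share within 10 kb by construction, since 1 CTCFL peak then marks both neighbours. With peaks of one list closer than 200 bp joined first, the shares over all distances were 15.6% and 11.9%. The difference was present at every strength of the next peak, though with overlapping intervals for the strongest: from the weakest to the strongest of 4 groups by CTCF score, the shares were 8.57 and 5.07%, 11.04 and 7.30%, 15.9 and 11.1%, and 26.4 and 24.0%. Along the CTCFL list as a whole no such difference was measured. The next CTCFL peak had CTCF in 67.4% of cases after a peak with CTCF (66.0 to 68.9) and in 67.8% after one without (65.6 to 69.9). By distance of the next peak these shares were 72.9 and 68.7% within 10 kb, and 67.3 and 73.3% at 10 to 50 kb. Beyond 50 kb they were 66.6 and 66.2%, and the intervals overlapped at each distance. Most CTCF peaks with CTCFL were still single, in 2824 runs of 1. Runs of 2 numbered 408, runs of 3 numbered 80, and 21 runs held 4 to 6. The longest were 6 CTCF peaks over 97.4 kb at chr2:32163461-32260901 (CTCF scores 102 to 371), 6 over 40.0 kb at chr19:5014473-5054494 (50.8 to 453) and 5 over 22.9 kb at chr5:140141385-140164290 (69.5 to 554).

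Regional density differed more for CTCFL than for CTCF. Of 2648 windows of 1 Mb, 2409 held a CTCF peak and 1592 a CTCFL peak, 830 had CTCF and no CTCFL, and only 13 the reverse. Counts of both factors rose together across windows (Spearman's rho 0.817, n = 2648 windows, a description, since the lists share sites). For CTCFL peaks without CTCF, which share no site with the CTCF list, rho was 0.589. The 2409 windows with CTCF were put in 5 groups of nearly equal size by their number of CTCF peaks. The sparsest group held 1 to 4 CTCF peaks a window and 8.72 CTCFL peaks per 100 CTCF peaks (6.92 to 10.9). The densest held 21 to 73 and 22.7 per 100 (21.9 to 23.5), with 11.02, 13.7 and 15.7 in the groups between. CTCFL peaks without CTCF went from 0.104 a window in the sparsest group to 2.08 in the densest. CTCF peaks went from 2.07 to 32.2 a window, and all CTCFL peaks from 0.18 to 7.31. In proportion, the rise of CTCFL peaks without CTCF was thus closer to that of CTCF than the rise of all CTCFL peaks was.

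Both shares of joint sites rose with the density of CTCF in P19. The share of CTCF peaks with CTCFL went from 3.71% (2.62 to 5.07) in the sparsest windows through 6.16, 8.33 and 10.4% to 16.2% (15.7 to 16.8) in the densest. CTCF scores were also higher in dense windows, with medians of 93.1 and 129 in the sparsest and densest groups. Among CTCF peaks of the highest of 4 score groups alone, the share was 7.32% (3.40 to 13.4) in the sparsest and 29.0% (27.7 to 30.3) in the densest windows, and in the lowest score group 1.66% (0.612 to 3.58) and 7.38% (6.53 to 8.31). The share of CTCFL peaks with CTCF went from 42.5% (31.99 to 53.6) through 56.2, 60.6 and 65.4% to 71.6% (70.1 to 73.1). CTCFL scores rose with density as well, with medians of 64.7 and 77.4 in the sparsest and densest groups. Within CTCFL score groups the rise was not always steady: in the highest of 4 groups the shares from sparsest to densest were 66.7, 74.5, 79.7, 73.6 and 84.6%, and in the next highest 61.5, 67.1, 70.6, 74.2 and 69.7%. In the lowest they rose at each step from 30.8 to 61.6%. The sparsest windows held only 12 to 36 CTCFL peaks in each score group. A shared site adds a CTCF peak to its own window. With that peak not counted, CTCFL peaks with 0 to 3 other CTCF peaks in their window had CTCF in 50.8% of cases (41.6 to 60.1), and those with 21 or more in 70.9% (69.3 to 72.4).

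In 3T3 the rise of CTCF peaks with CTCFL was smaller in proportion, from 13.6% (11.4 to 16.1) to 22.8% (22.3 to 23.4). The share of 3T3 CTCFL peaks with CTCF was 51.9% in the sparsest windows, 62.2 to 62.9% in the 3 groups between and 60.7% (59.7 to 61.6) in the densest. The groups follow each line's own CTCF counts, so they differ in windows and limits. The densest held 21 to 73 CTCF peaks a window in P19 and 31 to 186 in 3T3. The share in the densest P19 group, at 71.6%, was above that in the densest 3T3 group. In the second group (4 to 8 and 4 to 9 CTCF peaks a window) the intervals overlapped. There the P19 share of 56.2% (50.5 to 61.9) was below the 3T3 share of 62.2% (59.0 to 65.3).

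**Figure D4:**
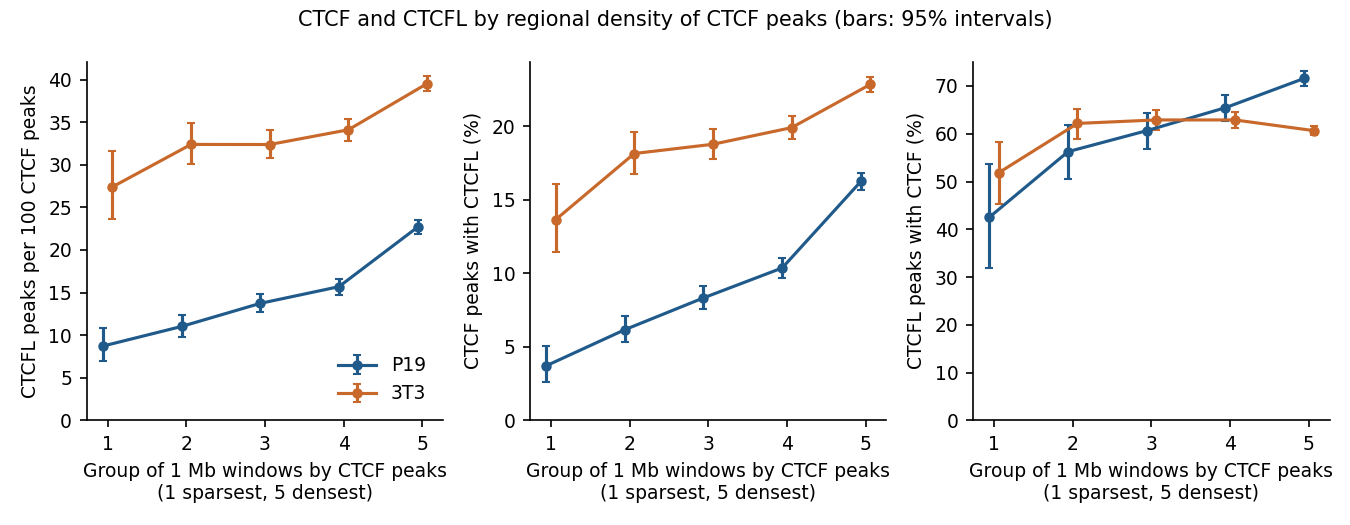
CTCFL peaks per 100 CTCF peaks (left), the percentage of CTCF peaks with CTCFL (middle) and of CTCFL peaks with CTCF (right), in 5 groups of 1 Mb windows from the sparsest to the densest in CTCF peaks (x axis), for P19 and 3T3 lists; bars are 95% intervals for counting error. All 3 P19 values rise from group to group, the last from 42.5% to 71.6%, while the 3T3 share at the right stays between 60.7% and 62.9% from group 2 on.

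By chromosome, the share of CTCFL peaks with CTCF varied less in proportion than the share of CTCF peaks with CTCFL. CTCFL peaks had CTCF in 62.2% (chromosome 13) to 74.0% (chromosome 5) of cases, and for 19 of 20 chromosomes the interval included the 67.6% of the whole list, the exception being chromosome 5 (69.5 to 78.2). CTCF peaks had CTCFL in 5.65% of cases on chromosome X (4.10 to 7.56) and in 18.6% on chromosome 11 (17.1 to 20.1). For only 8 of 20 chromosomes the interval included the 12.3% of the whole list, with chromosomes 8, 11, 15, 17 and 19 above it and chromosomes 1, 3, 6, 10, 13, 14 and X below. These counts of chromosomes depend on interval width as well as on evenness. A chromosome held 65 to 705 P19 CTCFL peaks and 743 to 2608 P19 CTCF peaks, and intervals are wider with fewer peaks. In 3T3 the intervals for CTCF peaks included that list's 21.2% on 14 chromosomes. Those for CTCFL peaks, with 217 to 1424 peaks on a chromosome, included that list's 61.3% on 12, with 4 below and 4 above.

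**Figure D5:**
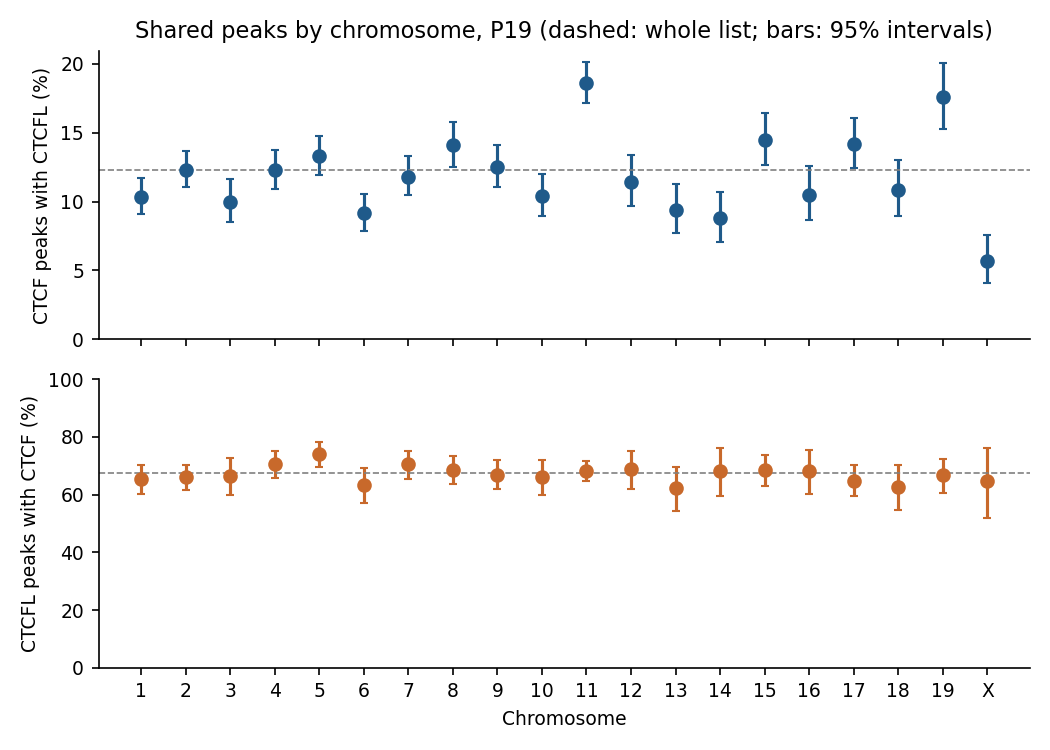
Percentage of P19 CTCF peaks with CTCFL (top) and of P19 CTCFL peaks with CTCF (bottom) on each chromosome (x axis); bars are 95% intervals for counting error and dashed lines the whole lists (12.3% and 67.6%). The top values run from 5.65% on X to 18.6% on chromosome 11, and the bottom values lie between 62.2% and 74.0%.

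Chromosomes 11 and 19, singled out after their values were seen, had many CTCF-dense windows and, in the denser windows, a higher share of CTCF peaks with CTCFL than the other autosomes. Of their CTCF peaks, 71.1% lay in windows of the densest group, against 46.2% on the other autosomes and 2.83% on X. Within that densest group, 21.1% of CTCF peaks on chromosomes 11 and 19 had CTCFL (19.5 to 22.7), against 15.3% on the other autosomes (14.7 to 15.9). In the next group the shares were 13.9% (11.2 to 16.8) and 10.1% (9.39 to 10.8), and in the 3 sparser groups the intervals overlapped. On X the share in the 4 sparser groups ran from 2.04 to 9.43%, and in the densest group 0 of 21 CTCF peaks had CTCFL, which allows a share of up to 16.1% (exact upper bound). Each of these 5 intervals overlapped that of the other autosomes.

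The densest windows held both kinds of CTCFL site. Most CTCFL peaks were counted at chr19:5000001-6000000, with 28, of which 18 had CTCF and 10 did not, among 51 CTCF peaks. The second was chr11:120000001-121000000, with 27 CTCFL peaks (17 with CTCF, 10 without) and 48 CTCF peaks, and the third chr19:10000001-11000000, with 26 and 49. The windows richest in CTCF were others: chr10:80000001-81000000 held 73 CTCF and 18 CTCFL peaks, chr10:79000001-80000000 68 and 21, and chr4:140000001-141000000 64 and 22. Each was above the mean of 7.31 CTCFL peaks a window in the densest group. CTCFL peaks without CTCF were next most frequent at chr11:100000001-101000000 (9 of 20) and chr7:31000001-32000000 (8 of 15). At the other end, chr7:107000001-108000000 held 27 CTCF peaks and chr1:40000001-41000000 and chr6:97000001-98000000 held 21 each with no CTCFL peak. These last 3 windows were chosen after their values were seen.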

How the data were processed

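Per the labels, chromatin of P19 and NIH3T3 cells was precipitated with CTCF or CTCFL antibodies, and 10 ng of it went into each library. MACS 1.4, Bowtie, SAMtools and FastQC, and the genome builds mm9 and hg19, appear in the submitters' processing notes with no role stated. Nothing used here states the aligner settings, depth, control library or pooling. Each deposited list gives peak positions and the peak caller's score, deposited as the authors' caller gave it. Since depth and the control library enter such a score, peaks were ranked only within a list.

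Starts were converted to count from 1. The organism and the notes point to mm9 as the build. The last P19 peak lay beyond the last gene of the GRCm38.p6 table on 10 of 20 chromosomes, so that table was not used. Overlap meant at least 1 bp, a gap counts the bases between 2 peaks, and windows count peak centres. A CTCFL peak on several CTCF peaks was ranked against the one it overlaps most. One mitochondrial 3T3 peak was left out. Named sites followed a rule: the highest scoring of each class, the extremes of rank difference and of distance, the densest windows and the longest runs. Members, lists and rules were chosen with earlier results of these data known. Alternatives were other overlap criteria, a score limit, equal list lengths, resized or joined peaks, autosomes, and other distances and windows. The software was bedtools 2.31.1, SciPy 1.17.1, pandas 2.3.3, numpy 2.4.6, matplotlib 3.10.9 and Python 3.11.15, and the overlap and distance code was checked against bedtools and tested on simulated data.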

Additional observations from a re-analysis of the deposited data

Results flagged for a closer look

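Of 8 contrasts computed in both lines, 3 had opposite signs in P19 and 3T3. With 1 library per antibody and line, whether the lines differ in these contrasts was not tested.

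The share of CTCFL peaks with CTCF changed between the second densest and the densest group of 1 Mb windows by 6.13 percentage points in P19. In 3T3 it changed by −2.22 points, with overlapping intervals. The next CTCFL peak along the chromosome had CTCF more often after a peak with CTCF than after one without by 6.95 points in 3T3, and the same contrast was −0.359 points in P19, where the intervals of both shares overlapped. For CTCFL peaks with CTCF, the share with another CTCF peak within 10 kb was 2.49 points higher among the highest scoring of 4 groups than among the lowest in P19, with overlapping intervals, while the contrast was −10.4 points in 3T3.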

How the results depend on the processing

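No paired analysis was possible because there is a single library for each antibody in each line, and no replicate could be left out for the same reason. Of the values under alternatives, 12 were inside and 21 outside the interval of the value in the report; among those chosen after seeing the data, 3 were inside and 1 outside. The cause of the shifts was not tested, except that score and length limits remove weak peaks by construction. The centre rule likewise moves off-centre overlaps into the class without CTCF. The share of CTCFL peaks with CTCF was 60.9% with 50% of both peaks covered, 61.6% with centres within 200 bp, 65.7% when both lists were limited to scores of at least 100 and 28.1% against the 5866 strongest CTCF peaks, so that the majority depends on the length of the CTCF list. The share of CTCF peaks with CTCFL was 11.1%, 11.2%, 5.85% and 27.9% in the same order. The share of CTCFL peaks without CTCF that had a CTCF peak within 10 kb was 54.4% with centres within 200 bp, where peaks that overlap off centre join this class, and 36.5% with scores of at least 100. It was 30.6% within 5 kb and 85.8% within 50 kb. For CTCFL peaks with CTCF the shares were 43.7% with scores of at least 100, 36.1% within 5 kb and 91.1% within 50 kb. At centres within 200 bp that share was 53.6%, with an interval overlapping that of the 54.4% without CTCF. The off-centre overlaps in the latter class count as near CTCF by construction. The median gap of CTCFL peaks without CTCF was 7998 bp with centres within 200 bp and 16364 bp with scores of at least 100. With that score limit the next CTCF peak had CTCFL in 9.42% of cases after a peak with CTCFL and in 5.62% after one without. In 5 Mb windows there were 21.7 CTCFL peaks per 100 CTCF peaks in the densest and 10.9 in the sparsest group, where 53.6% of CTCFL peaks had CTCF. The centre offset ran from 68.5 to 73 bp and the rank correlation of scores from 0.150 to 0.151 under their alternatives.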

Other observations

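The CTCFL peaks of P19 without P19 CTCF were also set against the 3T3 CTCF list, by how far they lay from P19 CTCF. A 3T3 CTCF peak was found at 50.8% of those within 1 kb of a P19 CTCF peak (43.4 to 58.1), 48.9% of those at 1 to 10 kb (45.1 to 52.7), 48.8% at 10 to 100 kb (45.5 to 52.1) and 29 of the 116 beyond 100 kb (interval 17.4 to 33.9%). A 3T3 CTCFL peak was found at 40.7, 39.6, 40.4 and 19.8% of them. Within this class the share with 3T3 CTCF rose with the P19 CTCFL score, from 33.4% (29.2 to 37.8) in the weakest of 4 groups through 39.4 and 54.8% to 62.7% (58.2 to 67.1) in the strongest. For P19 CTCFL peaks with CTCF, the 3T3 CTCF share was 77.5% (75.3 to 79.6) where the paired centres were within 50 bp and 78.4% (73.9 to 82.5) where they were over 200 bp apart.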
